A study of Gallus gallus with 6 samples.

Results

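Cholesterol and fatty acids are both built from acetyl-CoA in the cytosol, and the genes for their synthesis were examined in chick wing explants in which Fgf signalling had been inhibited. The genes were taken by symbol from a list of 29 enzymes and regulators. Of these, 26 had a row of that name among the 21062 genes with normalised counts, and all 26 were among the 16324 genes tested. The other 3 of the 29 are in the tables without a symbol and were followed by their descriptions. The tissue was limb bud at stage HH20 from wild type embryos, dissected from the posterior part of the wing and held in growth factor reduced Matrigel with 10% fetal bovine serum for 48 h. Libraries came from 3 pools of explants cultured with SU5402 at 5 µM and 3 pools cultured with DMSO, its solvent, alone. SU5402 blocks the kinase of Fgf receptors and is also known to act on Vegf receptors, so the comparison is of the compound and not of 1 receptor family.

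The mevalonate arm of the pathway joins acetyl-CoA units into farnesyl diphosphate, which is condensed into squalene, closed into lanosterol and trimmed to cholesterol. Fatty acids are made from the same acetyl-CoA by carboxylation and repeated condensation, and are then lengthened and desaturated. Transcription of both sets is driven by the sterol regulatory element binding proteins, encoded by SREBF1 and SREBF2. In vertebrate cells INSIG proteins hold these factors with their escort SCAP in the endoplasmic reticulum when sterols are plentiful, and SCAP carries them to the Golgi for activation when sterols are scarce. In the limb, cholesterol is known for its covalent attachment to Sonic hedgehog, and human mutations in DHCR7 give a syndrome that includes digit malformations.

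The genes of both branches were down-regulated together in SU5402-treated explants. Of the 26 members, 24 fell at an adjusted p-value below 0.05, none rose, and HSD17B7 and SCAP did not pass. Among all 16324 genes tested, 16.0% passed in the lower direction and 30.4% in either. The median log2 fold change over the members was -0.74, against 0.01 over all genes tested. In all 26 members the SU5402 libraries did not overlap the DMSO libraries, whereas 49.7% of all genes tested showed no overlap in either direction. The reductions were moderate. More than a 2-fold fall, the threshold used in the study, was reached by 6 members (SQLE, LSS, INSIG1, SREBF1, STARD4 and SCD), against 4.54% of all genes tested, and no member rose by as much, against 6.26%. With 0 members called higher by limma, 0 were higher at an unadjusted p-value below 0.05, and edgeR and DESeq2 also called 0. Values are normalised counts, meaning reads divided by the size factor of the library, unless FPKM is named, and log2 fold changes are of SU5402 over DMSO on the log2(count + 1) scale.

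**Figure D1:**
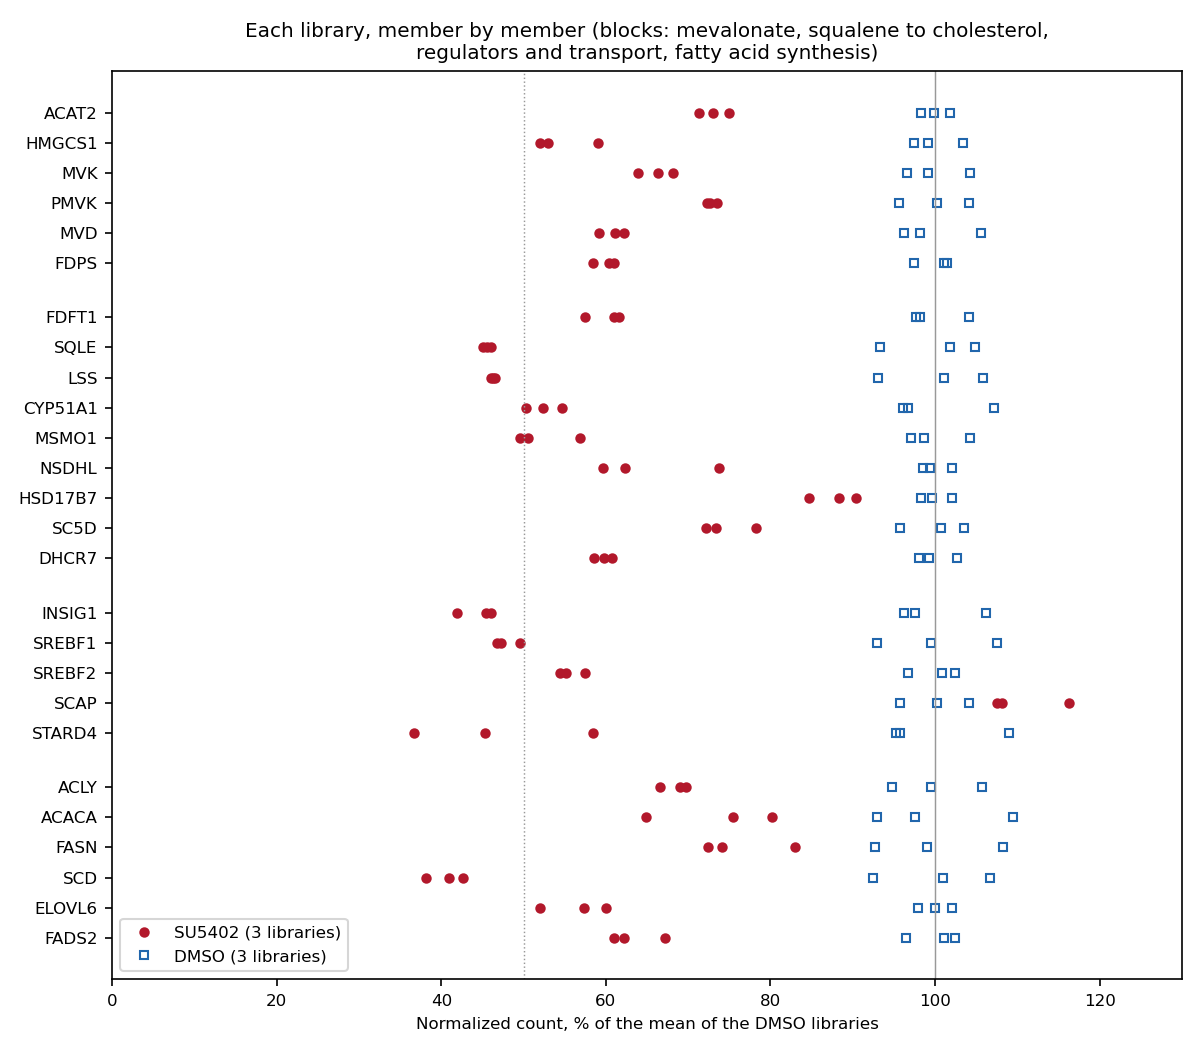
Normalised count of each of the 26 members in each library, as a percentage of the mean of the 3 DMSO libraries (x axis, linear, from 0), with SU5402 libraries as filled circles and DMSO libraries as open squares. In 25 members all 3 SU5402 libraries lie below all 3 DMSO libraries, and in SCAP they lie above.

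The libraries held between 29390751 and 37373688 reads on genes with SU5402 and between 25849833 and 44261768 with DMSO, and each member had between 994 and 30346 reads in every library, so counting error was small. MKP3, a direct read-out of Fgf signalling, had 511 ± 59.7 normalised counts with SU5402 and 3439 ± 158 with DMSO (SD, n = 3 each), and all 5 Fgf target genes found fell more than 2-fold. Cell type markers also differed between treatments in these whole explants. Summed FPKM of 9 limb mesenchyme markers was 1100 to 1152 with SU5402 and 939 to 960 with DMSO, with 3 higher and 1 lower. COL1A2, 1 of the 3 higher, had means of 331 FPKM with SU5402 and 185 with DMSO. PRRX1, the lower gene, had 214 and 282. All 8 endothelial markers found were lower (summed FPKM 28.9 to 32.0 with SU5402 and 183 to 188 with DMSO), as were 5 of 7 cartilage markers (168 to 202 and 226 to 306). Those 5 fell more than 2-fold, but most of the cartilage sum was COL2A1, which was not called (means of 140 FPKM with SU5402 and 157 with DMSO). HAPLN1, also not called, had 14.9 with SU5402 and 11.6 with DMSO. Higher were 9 of 9 muscle markers (137 to 191 with SU5402 and 28.4 to 35.6 with DMSO), 8 of 8 ectoderm markers (210 to 245 and 92.3 to 119), 5 of 6 red blood cell markers (570 to 856 and 154 to 198), 2 of 5 neural crest markers (25.6 to 31.0 and 11.4 to 12.1) and 4 of 8 macrophage markers, with 1 lower (18.0 to 23.7 and 13.8 to 14.9). Of 6 adipocyte markers 2 were lower and 1 higher (10.6 to 11.8 with SU5402 and 10.5 to 11.4 with DMSO). ADIPOQ was close to 0, at a mean of 9.10 normalised counts with SU5402 and 13.6 with DMSO. PPARG and LPL, the 2 lower genes, had means of 202 and 488 with SU5402, against 277 and 637 with DMSO. FABP4, the higher gene, had 43.5 with SU5402 and 0.951 with DMSO. The part of these cell types in the changes below was not tested, and in such bulk libraries fewer cells of a type and less RNA per cell cannot be told apart.

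The 6 enzymes of the mevalonate arm that carry a symbol were all down-regulated, with log2 fold changes from -0.87 to -0.45 and a median of -0.66. HMGCS1, which makes hydroxymethylglutaryl-CoA at the entry of the pathway (ENSGALG00000014862, chromosome Z from 13647830 to 13665258 of GRCg6a, the build of all positions given), changed most. Its normalised counts were 5983, 6793 and 6105 in the SU5402 libraries, against 11420, 11905 and 11229 in the DMSO libraries. The lowest DMSO library thus lay well above the highest SU5402 library, and HMGCS1 was at 54.6% of its DMSO level (log2 fold change -0.87, SE 0.07, adjusted p = 0.0012 by limma). FDPS, which makes farnesyl diphosphate, had 6581, 6800 and 6869 with SU5402, against 10974, 11419 and 11384 with DMSO. FDPS counts were tight within each treatment, and it was at 60.0% of its DMSO level (log2 fold change -0.74, SE 0.05, adjusted p = 8.4e-04).

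Between these steps stand the decarboxylase MVD and the kinases MVK and PMVK, and before them the thiolase ACAT2. MVD had 3498, 3326 and 3438 normalised counts with SU5402, against 5409, 5938 and 5521 with DMSO, a log2 fold change of -0.72. MVK was at 66.2% of the DMSO level, PMVK at 72.9% and ACAT2 at 73.1%, with adjusted p-values between 0.0021 and 0.0042. Those last 2 genes had the smallest changes in the arm. The isomerase that follows MVD is described as isopentenyl-diphosphate delta isomerase 1 in the files but has no symbol there (ENSGALG00000006723), and the RefSeq table for assembly GRCg7b names an isomerase gene IDI2 with the gene number that this description cites. This row fell to 7044, 7396 and 7254 with SU5402, against 13013, 13630 and 13177 with DMSO, which is -0.88 on the log2 scale (SE 0.05, adjusted p = 5.4e-04).

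Beyond farnesyl diphosphate, 8 of the 9 enzymes from squalene to cholesterol were down-regulated, with a median log2 fold change of -0.74. SQLE, the squalene epoxidase that is a flux-controlling enzyme of this arm (ENSGALG00000036915, chromosome 2 from 138683095 to 138697225), had 5114, 5167 and 5058 normalised counts with SU5402, against 10468, 11770 and 11422 with DMSO. LSS, which closes squalene epoxide into lanosterol (ENSGALG00000006198, chromosome 7 from 6913221 to 6923292), had 7246, 7203 and 7160 with SU5402, against 14493, 16481 and 15740 with DMSO. Both showed almost no spread among SU5402 libraries and more among DMSO libraries, and both were reduced by more than 2-fold. SQLE changed by -1.13 on the log2 scale (SE 0.07, adjusted p = 4.7e-04) and LSS by -1.11 (SE 0.07, adjusted p = 5.2e-04).

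Of the enzymes that demethylate lanosterol, CYP51A1 and MSMO1 came close to a 2-fold reduction, and NSDHL and HSD17B7 did not. CYP51A1, the lanosterol demethylase, had 10313, 10747 and 9900 normalised counts with SU5402, against 18914, 21090 and 19021 with DMSO. MSMO1, a methylsterol oxidase, had 5285, 5945 and 5183 with SU5402, against 10318, 10901 and 10143 with DMSO. Their log2 fold changes were -0.93 (95% confidence interval -1.11 to -0.75) and -0.94 (-1.13 to -0.74), and for each the interval spans a 2-fold fall. FDFT1, the squalene synthase, was at 60.0% of its DMSO level and DHCR7, a terminal reductase, at 59.7%. NSDHL, a sterol dehydrogenase of the same demethylation complex, was at 65.0%, and SC5D, a sterol desaturase, at 74.6%.

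HSD17B7, a ketosteroid reductase of sterol demethylation, was the exception among the sterol enzymes. It had 1948, 2032 and 2078 normalised counts with SU5402, against 2292, 2346 and 2262 with DMSO. The treatments did not overlap, but the log2 fold change was only -0.19 (SE 0.05, adjusted p = 0.053). HSD17B7 passed the threshold in edgeR and DESeq2, at adjusted p-values near 0.025, and its adjusted p over all alternatives was 0.025 to 0.15. The isomerase EBP, which has a description but no symbol in the files (ENSGALG00000048205), fell to 2981 ± 113 with SU5402, against 4748 ± 250 with DMSO (SD, n = 3 each), a log2 fold change of -0.67.

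**Figure D2:**
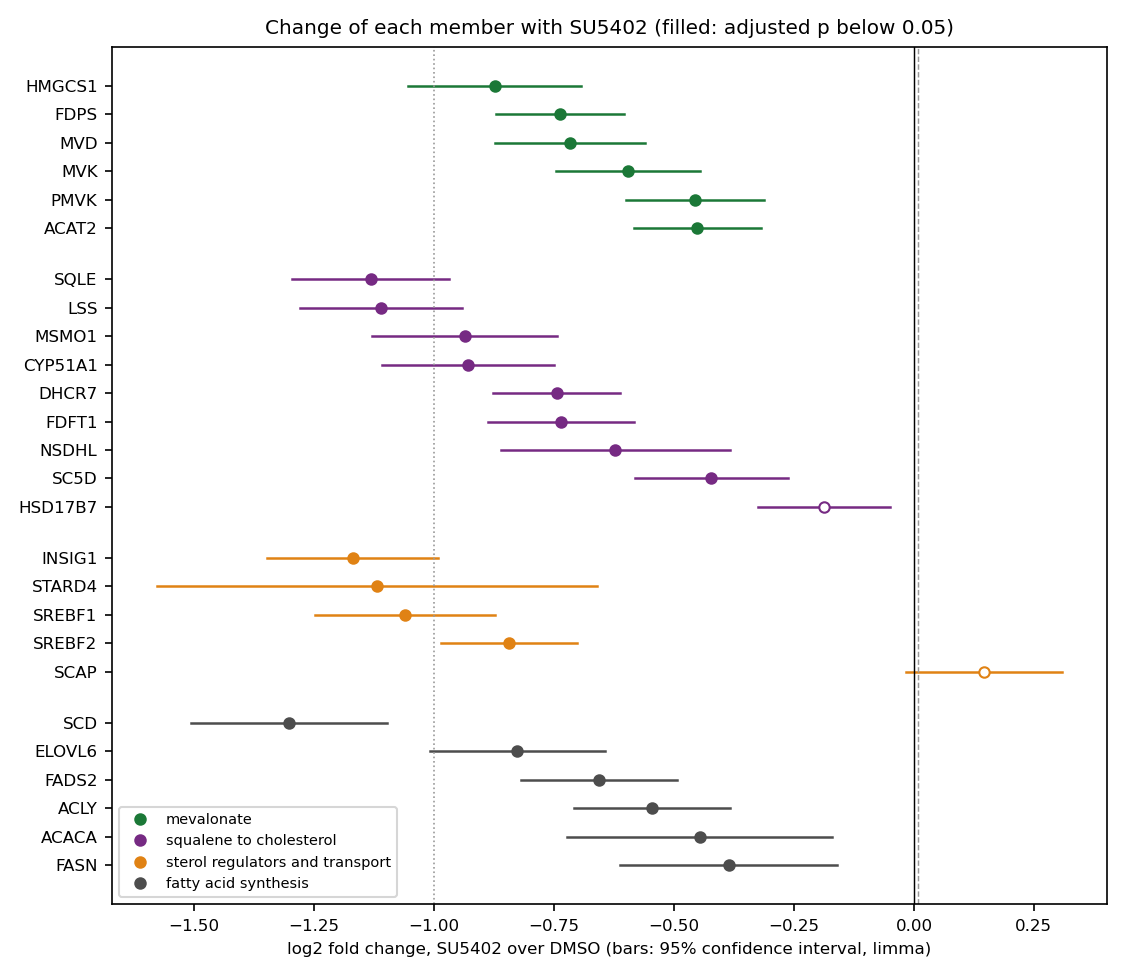
Log2 fold change of each member, SU5402 over DMSO, with its 95% confidence interval from limma, ordered by size within each branch. Filled points passed an adjusted p-value of 0.05, the dotted line marks a 2-fold fall and the dashed line the median of all genes tested. SCAP lies to the right of 0 and HSD17B7 nearest to 0 among the enzymes.

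Of the members that control the pathway, INSIG1, SREBF1 and SREBF2 were reduced and the escort SCAP was not. Other genes of the circuit, from the list of sterol sensing genes, were not called lower either: INSIG2 was higher, and the proteases that release the factors, MBTPS1 and MBTPS2, did not pass (log2 fold changes -0.05 and -0.09, adjusted p = 0.48 and 0.68 by limma, and 0.44 to 0.71 and 0.30 to 0.95 over the alternatives). INSIG1, the sterol-responsive retention protein (ENSGALG00000017394, chromosome 2 from 7910368 to 7918977), had 5707, 5630 and 5203 normalised counts with SU5402, against 11938, 13169 and 12105 with DMSO, and was at 44.5% of its DMSO level (adjusted p = 5.2e-04). SREBF1 (ENSGALG00000027188, chromosome 14 from 5307535 to 5318482) had 4911, 4857 and 5152 with SU5402, against 9658, 11169 and 10345 with DMSO. SREBF2 (ENSGALG00000041687, chromosome 1 from 49494257 to 49513013) had 13031, 12339 and 12488 with SU5402, against 21916, 23203 and 22855 with DMSO. Messenger RNA of both transcription factors was therefore lower in every SU5402 library, SREBF1 by -1.06 (SE 0.07, adjusted p = 7.8e-04) and SREBF2 by -0.84 (SE 0.06, adjusted p = 6.7e-04) on the log2 scale.

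SCAP did not share this pattern. It had 4247, 4220 and 4563 normalised counts with SU5402, against 3936, 4086 and 3756 with DMSO, and its log2 fold change of 0.15 did not pass the test (95% confidence interval -0.02 to 0.31, adjusted p = 0.15, and 0.054 to 0.34 over the alternatives). SCAP is the only member with a mean above that of the DMSO libraries. STARD4, a cytosolic sterol carrier (ENSGALG00000000241, chromosome Z from 46594962 to 46603606), had 1965, 3131 and 2433 with SU5402, against 5110, 5134 and 5844 with DMSO. It was the most variable member, with a highest SU5402 library 1.59 times the lowest, while in the other 25 members this ratio was at most 1.24 in either treatment. Its log2 fold change was -1.12 (SE 0.18, adjusted p = 0.0095), and without SU5402 replicate 1, the lowest, it was -0.96, short of 2-fold.

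All 6 fatty acid genes with a symbol were down-regulated, but unevenly, with log2 fold changes from -1.30 to -0.39. SCD, the stearoyl-CoA desaturase that makes monounsaturated fatty acids (ENSGALG00000005739, chromosome 6 from 18321285 to 18340590), had the largest fall of all 26 members. Its normalised counts were 7530, 7846 and 7022 with SU5402, against 17021, 19639 and 18600 with DMSO, which left it at 40.6% of the DMSO level (log2 fold change -1.30, SE 0.08, adjusted p = 5.7e-04). The elongase ELOVL6, which extends palmitate, had 1180, 1128 and 1023 with SU5402, against 1966, 2006 and 1926 with DMSO (log2 fold change -0.83, adjusted p = 0.0015). FADS2, a desaturase of polyunsaturated fatty acids, had 9452, 10209 and 9257 with SU5402, against 15349, 15552 and 14650 with DMSO (log2 fold change -0.66, adjusted p = 0.0020). Among the 6 genes with a symbol these were the larger changes, whereas FADS1, a desaturase found by its description, had the smallest change in the branch (log2 fold change -0.25, not called).

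ACLY, ACACA and FASN, which build the chain, changed less than SCD, ELOVL6 and FADS2. ACLY, which supplies cytosolic acetyl-CoA to both branches, was at 68.5% of its DMSO level (adjusted p = 0.0035). ACACA, the carboxylase that commits acetyl-CoA to fatty acids, had 6118, 6504 and 5264 normalised counts with SU5402, against 7539, 8882 and 7915 with DMSO. FASN, the fatty acid synthase, had 15858, 17740 and 15496 with SU5402, against 19841, 23151 and 21182 with DMSO. In both the spread within a treatment was wide beside the difference, with log2 fold changes of -0.45 (SE 0.11, adjusted p = 0.033) and -0.39 (SE 0.09, adjusted p = 0.028). The call of ACACA was lost without SU5402 replicate 1, SU5402 replicate 3 or any 1 of the DMSO libraries, with no filter on low counts (0.057) and with the replicate number as a block (0.051), and its largest adjusted p was 0.091. The call of FASN was lost without SU5402 replicate 1, SU5402 replicate 3, DMSO replicate 2 or DMSO replicate 3 and with no filter (0.051), and its largest adjusted p was 0.086. FADS1, described but without a symbol in the files (ENSGALG00000007127), had 3852, 4118 and 3543 with SU5402, against 4378, 4785 and 4548 with DMSO, a log2 fold change of -0.25 that did not pass (adjusted p = 0.063 by limma, and 0.0014 to 0.17 over the alternatives, of which edgeR and DESeq2 called it).

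Set side by side, the branches both had lower summed levels with SU5402. Summed FPKM of the 15 sterol enzymes was 976, 1014 and 976 with SU5402, against 1659, 1776 and 1688 with DMSO, so that the SU5402 mean was 57.9% of the DMSO mean. For the 6 fatty acid genes it was 305, 319 and 289 with SU5402, against 474, 521 and 489 with DMSO, or 61.6%. The median log2 fold changes were -0.74 and -0.60, a difference of -0.13 that narrowed to -0.08 when ACLY was left out of the fatty acid branch. No test over members was made, since genes of 1 pathway are not replicates. Of all reads counted on genes, the 26 members together took 0.465%, 0.488% and 0.456% with SU5402, against 0.740%, 0.817% and 0.771% with DMSO.

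**Figure D3:**
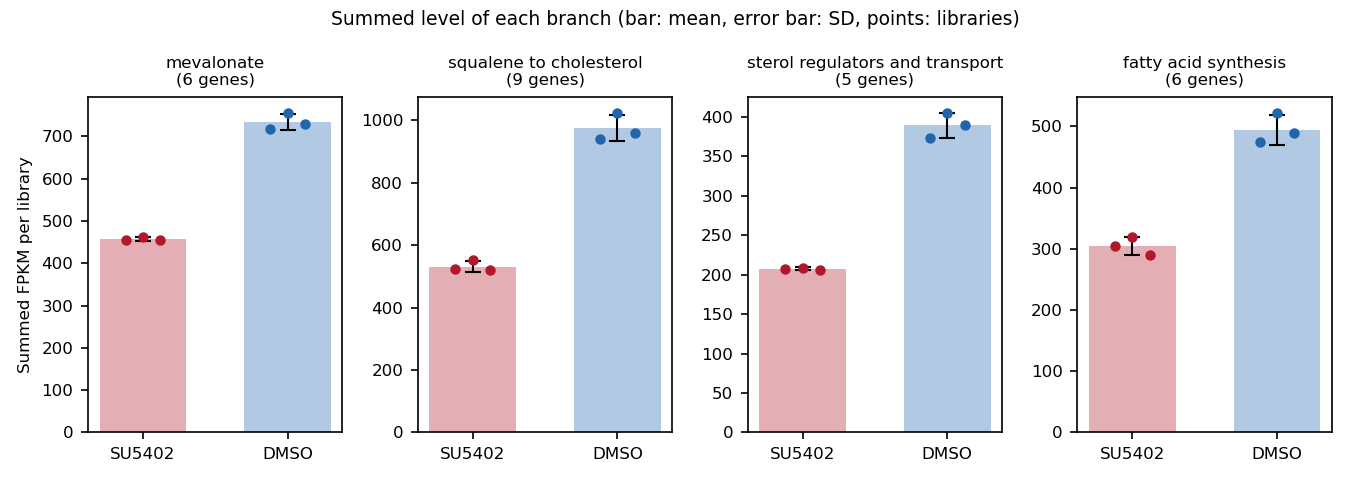
Summed FPKM per library (y axis, from 0) for the mevalonate enzymes, the enzymes from squalene to cholesterol, the regulators with STARD4, and the fatty acid genes, with SU5402 left of DMSO. Bars are means, error bars SD and points the 3 libraries. In each of the 4 panels the SU5402 libraries lie below the DMSO libraries, at 62.4%, 54.5%, 53.3% and 61.6% of the DMSO mean.

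Levels of different genes are compared here per length, in FPKM. All 26 members stood above the median of the genes tested, 9.65 FPKM, in both treatments. FDPS was the highest in each, at 151 ± 3.37 FPKM with SU5402 and 252 ± 5.55 with DMSO (SD, n = 3 each), followed by CYP51A1 at 110 ± 4.50 with SU5402 and 209 ± 13.0 with DMSO, with no overlap between them. At the low end, STARD4 and SC5D, both near 15.6 FPKM with SU5402, overlapped there, and SC5D and SCAP, at 20.9 and 21.8 FPKM, overlapped with DMSO. Of the 25 neighbouring pairs in the DMSO order, 15 overlapped between libraries, so the order within those pairs is not resolved. LSS, SQLE and SCD took places 7, 9 and 13 with DMSO. With SU5402 they took places 10, 11 and 16. MSMO1 and STARD4 likewise went from places 3 and 23 to 6 and 26, while ACLY went from place 8 to place 3. Such shifts follow from the fold changes given above and are not a separate result. Within the DMSO group, replicate 2 was the highest library in 24 of the 26 members. Its median deviation from the group mean was 0.06 on the log2 scale over the members and 0.003 over all genes tested. This library was also the most deeply sequenced. Leaving it out kept 22 of the 24 calls, those of ACACA and FASN being lost.

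Other lipid genes changed in both directions. Lists of 81 other genes covered isoprenoid synthesis, sterol handling, fatty acid synthesis and fatty acid oxidation. Of the 13, 22, 26 and 20 genes listed, 10, 22, 21 and 16 were found by symbol and tested. These were counted in the same fit, where 16.0% of all genes passed lower and 14.4% higher. Of 10 other isoprenoid enzymes tested, 2 fell and none rose. TM7SF2, a sterol reductase that works beside CYP51A1, had 6805 ± 446 normalised counts with SU5402 and 9980 ± 173 with DMSO (SD, n = 3 each; log2 fold change -0.55, adjusted p = 0.0040). COQ2, of coenzyme Q synthesis, changed by -0.65 (adjusted p = 0.027), but 4 of the 6 libraries could each be left out to lose this call, all but SU5402 replicates 1 and 2, leaving 1 lower call in the list, and it was lost with the replicate block (adjusted p = 0.075). With edgeR 4 genes of the list were lower. The median of this list was -0.16.

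Of 22 sterol sensing, uptake and efflux genes tested, 1 fell and 4 rose, with a median log2 fold change of 0.07. The higher calls were 2 without SU5402 replicate 1 or SU5402 replicate 2, and edgeR with TMM factors called 5 lower and 6 higher. ABCA1, which exports cholesterol from cells, had 1022, 1241 and 818 normalised counts with SU5402, against 469, 488 and 548 with DMSO. Every SU5402 library was above every DMSO library (log2 fold change 1.01, SE 0.17, adjusted p = 0.0098), although the change was 0.87 without SU5402 replicate 2, the highest, 0.97 without DMSO replicate 1 and 1.00 without DMSO replicate 2, all under the 2-fold threshold (0.996 in the last case). The other 4 called genes of the list are added here after their values were seen. INSIG2, the paralogue of INSIG1, had 1394 ± 75.4 with SU5402 and 1058 ± 69.7 with DMSO (log2 fold change 0.40, adjusted p = 0.016), a call lost without any 1 of SU5402 replicates 1 and 2 and DMSO replicates 1 and 2 and with the replicate block (adjusted p = 0.074). NPC1, which moves cholesterol out of lysosomes, had 2067 ± 110 with SU5402 and 2784 ± 64.0 with DMSO (log2 fold change -0.43, adjusted p = 0.0070). NPC2, its partner in that export, went the other way, with 2308 ± 139 with SU5402 and 1438 ± 171 with DMSO (log2 fold change 0.69, adjusted p = 0.0077). MYLIP, a ubiquitin ligase for lipoprotein receptors, rose by 0.25 (adjusted p = 0.036), a call kept without DMSO replicate 1 and lost without any 1 of the other 5 libraries, with the replicate block and with no filter (adjusted p up to 0.10).

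Among 21 other fatty acid synthesis and activation genes tested, 7 fell and 5 rose, with a median of 0.11, and the higher calls were 3 without SU5402 replicate 2 or DMSO replicate 3. ME1, malic enzyme, which supplies NADPH for fatty acid synthesis, rose to 760, 924 and 795 normalised counts with SU5402, against 462, 337 and 246 with DMSO (log2 fold change 1.28, SE 0.24, adjusted p = 0.015), opposite in direction to ACACA and FASN. Without SU5402 replicate 2 its adjusted p was 0.051. The called genes with the largest changes in each direction after ME1 were added once their values were seen. LPIN1, a phosphatidate phosphatase, changed by -0.81 (adjusted p = 0.0019), HSD17B12, a reductase of chain elongation, by -0.65 (adjusted p = 0.0024) and the elongase ELOVL5 by -0.57 (adjusted p = 0.0018). OXSM, the mitochondrial ketoacyl synthase, rose by 0.71 (adjusted p = 0.024), a call lost without any 1 of SU5402 replicates 1 and 2 and DMSO replicates 2 and 3 and with the replicate block (adjusted p up to 0.073). Another elongase, ELOVL1, rose by 0.54 (adjusted p = 0.0074), opposite in direction to ELOVL5. Fatty acid oxidation genes were called higher in 7 of 16 and lower in 1, with a median of 0.16, and the higher calls were 4 without SU5402 replicate 2 or any 1 of the DMSO libraries. CPT1A, which admits fatty acids to mitochondria, had 1138, 1351 and 1178 with SU5402, against 678, 557 and 751 with DMSO (log2 fold change 0.89, adjusted p = 0.0075). HADHB, of the mitochondrial trifunctional protein, rose by 0.45 (adjusted p = 0.0073), whereas the peroxisomal enzyme EHHADH changed by -0.53 (adjusted p = 0.0026).

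**Figure D4:**
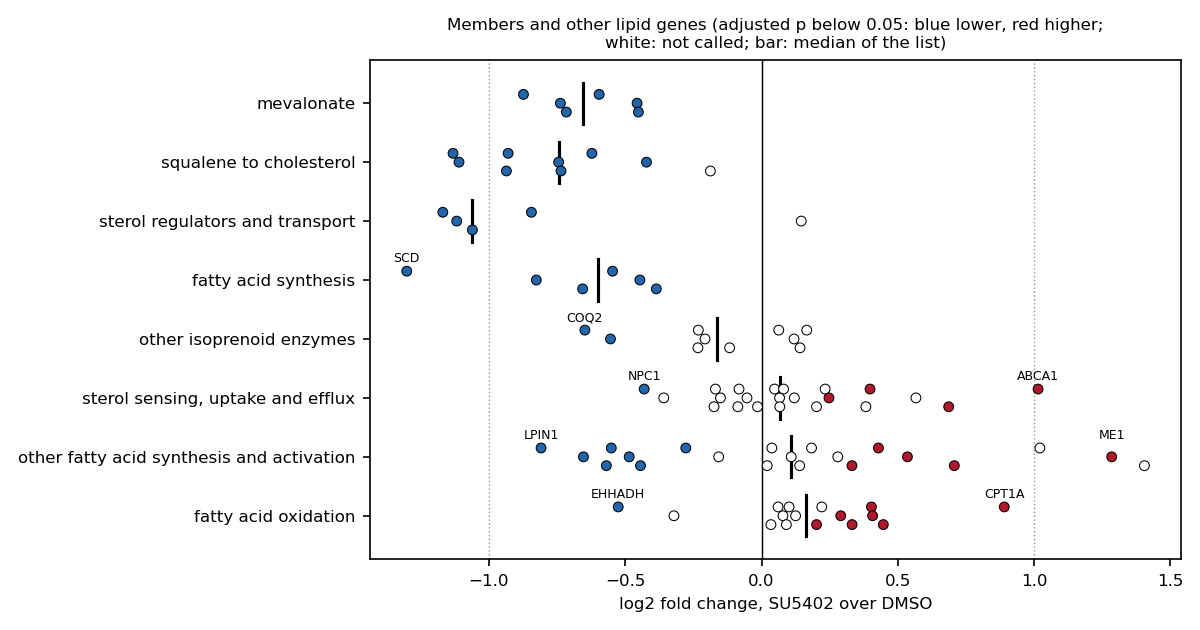
Log2 fold change of every tested gene in the 4 groups of members and the 4 lists of other lipid genes, SU5402 over DMSO. Blue points fell and red points rose at an adjusted p-value below 0.05, white points did not pass, and vertical bars are list medians, from -1.06 for the regulators and transport group to 0.16 for fatty acid oxidation.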

How the data were processed

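Explant libraries were sequenced by the authors on a NovaSeq instrument. Reads were mapped with HISAT2 2.0.5 to GRCg6a, per the submitters' processing notes, and counted with featureCounts 1.5.0-p3. The signal values deposited by the authors are counts divided by DESeq2 (1.20.0) size factors. All were whole multiples of 1 step per library (100% within 0.01 of a read), which gave the reads. The FPKM values the authors deposited share 1 total, 33590126, over all libraries. The authors' fold changes and p-values in these tables were not used.

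Log2(normalised count + 1) was tested with limma 3.58.1 (R 4.3.3, no trend) over genes reaching 10 in 3 or more libraries, with Benjamini-Hochberg adjustment over all of them. The design had named edgeR in case raw counts were deposited. edgeR 4.0.16 and DESeq2 1.42.0 were run on the recovered reads as alternatives. The test was checked on simulated data. Libraries of 1 treatment differed by more than counting noise. Replicates were separate experiments on pooled explants. Other lipid genes were named by rule: those past 2-fold, otherwise the 3 called genes with the largest change. INSIG2, MBTPS1, MBTPS2, NPC1, NPC2, MYLIP, LPIN1, HSD17B12, ELOVL5, OXSM and ELOVL1 lie outside this rule and were added after their values were seen. Members, lists and tests were chosen with earlier results of these data known. No promoter or protein sequence was used here.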

Additional observations from a re-analysis of the deposited data

How the results depend on the processing

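Each member was refitted under 16 alternatives: a pseudocount of 0.5, edgeR with TMM or RLE factors, DESeq2, no filter, a filter of 50, an intensity trend, FPKM with a pseudocount of 0.1 or 1, the replicate block and each library left out. Of 416 such values none changed sign, 397 kept their side of the threshold, 12 lost a call (ACACA and FASN) and 7 gained one (HSD17B7). In the limma refits the sign could not change, because the treatments did not overlap in any of the 26 members. Only edgeR and DESeq2 could have changed it. Between 22 and 25 members were called lower, 22 to 24 with a library left out, and 5 or 6 passed 2-fold. The sterol median stayed between -0.75 and -0.71 and the fatty acid median between -0.63 and -0.57 with a library left out, and their difference between -0.15 and -0.11. Adding the 3 rows without a symbol, chosen after seeing the data, gave 26 lower calls of 29, medians of -0.74 and -0.55 and a difference of -0.19. Among the other lipid lists, the lower and higher calls ranged from 1 to 4 and 0 (isoprenoid), 1 to 5 and 2 to 6 (sterol handling), 5 to 7 and 3 to 6 (fatty acid synthesis) and 1 to 2 and 4 to 7 (oxidation); their medians kept their sign. The median of all genes was 0.01 in the main limma fit, edgeR and DESeq2. In the other limma refits it lay between -0.0064 (FPKM with a pseudocount of 0.1) and 0.0245 (no filter). Correlations of deviations between SU5402 and DMSO libraries of the same replicate number were 0.039, 0.003 and 0.057. Those between different numbers lay between -0.067 and 0.029. With 3 libraries per treatment these values cannot settle whether replicate numbers pair the libraries. With the replicate block 23 members were lower (ACACA lost) and the calls over all genes were 3380 in place of 4958. HSD17B7 and FADS1 each passed in 7 of the 16 alternatives and SCAP in 0, so whether the first pair changed depends on the processing.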
